A study of Mus musculus with 11 samples.

Results

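Akr1c18, Ptgfr, Prlr, Sfrp4, Hsd17b7 and Parm1 are 6 genes of the corpus luteum, chosen by symbol for luteal function and regression from the 54232 genes of a count table of mouse ovaries, and all 6 passed the filter on low counts that left 20331 genes to test. Whole ovaries of wild-type (WT) mice were used for RNA sequencing at 3 ages, which the study describes as reproductively young, reproductively old and post-reproductive. By the sample labels, 4 libraries came from mice of 2 months, 4 from mice of 18 months and 3 from mice of 24 months. No strain, stage of the estrous cycle, treatment or animal of origin is given in the labels, so a replicate may or may not be a separate animal, and p-values speak of the spread of these samples alone.

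The corpus luteum forms from the granulosa and theca cells that remain in a follicle after ovulation, and it makes progesterone. In rodents prolactin, acting through its receptor Prlr, keeps the corpus luteum working. Prostaglandin F, acting through Ptgfr, starts its regression, and the rise of the progesterone-inactivating enzyme Akr1c18 marks its functional end. Sfrp4 is a secreted antagonist of Wnt signalling, Hsd17b7 is an enzyme of estradiol and cholesterol synthesis that was also described as a partner of the prolactin receptor in the rat corpus luteum, and Parm1 is a mucin-like membrane glycoprotein. In whole-ovary RNA, fewer luteal cells and less RNA per luteal cell cannot be told apart.

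Libraries held 26061630 to 33407509 counts, but 18 month replicates 3 and 4 held 5231724 and 8892915. Those libraries differed by about counting noise (chi-square of 1.10 per gene, against 28.7 for the next closest pair of that age), so they were summed and counted as 1 sample, which left 4, 3 and 3 samples. The summed sample is called replicate 3-4. The names of the 24 month libraries carry 22 months and those of the 2 month libraries 8 weeks, and the ages used here are those of the sample labels. The 7 markers that define the ovary were detected in every sample, with a summed level of 8013 to 21648 CPM (counts relative to library size, with TMM scaling) at 2 months, 6856 to 10323 CPM at 18 months and 1699 to 3666 CPM at 24 months. Star held between 33.5% and 93.4% of this sum, and the other 6 markers summed to 1183 to 1841, 846 to 1783 and 1092 to 2191 CPM at the 3 ages, which overlapped.

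The sequence just before the start of a gene holds its core promoter, and it is shown for the 3 genes that were lower at 24 than at 2 months by the test and for Hsd17b7, which was not. The sequences are from RefSeq on GRCm38.p6, read 5′ to 3′ on the strand of the gene, and end before the first base of the gene in the count table. Capitals mark matches on either strand to the motifs named after the sequences. The Akr1c18 stretch is chr13:4150655-4150896 on the minus strand, that of Ptgfr chr3:151837631-151837778 on the minus strand, that of Parm1 chr5:91517450-91517614 on the plus strand and that of Hsd17b7 chr1:169969242-169969455 on the minus strand.
Akr1c18: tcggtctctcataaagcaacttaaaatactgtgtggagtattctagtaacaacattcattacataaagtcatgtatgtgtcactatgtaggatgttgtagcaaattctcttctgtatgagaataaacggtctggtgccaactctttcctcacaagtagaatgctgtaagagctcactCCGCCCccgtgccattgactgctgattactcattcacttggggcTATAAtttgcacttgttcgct
Ptgfr: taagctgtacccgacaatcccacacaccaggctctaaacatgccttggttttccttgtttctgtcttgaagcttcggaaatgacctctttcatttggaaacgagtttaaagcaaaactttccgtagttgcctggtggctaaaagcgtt
Parm1: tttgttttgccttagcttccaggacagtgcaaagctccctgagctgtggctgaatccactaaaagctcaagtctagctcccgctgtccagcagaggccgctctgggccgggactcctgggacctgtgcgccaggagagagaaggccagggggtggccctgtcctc
Hsd17b7: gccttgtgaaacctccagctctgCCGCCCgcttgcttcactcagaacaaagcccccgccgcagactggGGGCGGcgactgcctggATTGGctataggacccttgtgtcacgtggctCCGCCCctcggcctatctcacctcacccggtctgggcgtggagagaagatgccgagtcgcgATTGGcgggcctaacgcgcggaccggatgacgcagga

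Over the full 250 bases before the RefSeq start, the Akr1c18 promoter had a TATA core (TATAA) at -29, counted from the start site, and a GC box (GGGCGG) at -73. The Hsd17b7 promoter had 3 GC boxes and 3 CCAAT boxes (CCAAT), the last of them at -12 and outside the stretch printed. The Ptgfr promoter had a GC box at -30, also outside the printed stretch, and the Parm1 promoter held none of the motifs searched. Across 32851 RefSeq promoters, 22.8% held the TATA core, 33.8% the CCAAT box and 32.7% the GC box. Also searched were AAGGTCA, the site of NR5A and NR4A receptors, found in 4.08% of all promoters, TTCNNNGAA of STAT factors (7.02%), TGANTCA of AP-1 (6.75%), AGATAA of GATA factors (9.99%), TGACGT of cAMP response elements (6.47%) and TCACNCCA of sterol elements (3.67%). None of these was in the 4 promoters shown. The Akr1c18 promoter was 41.6% G and C with 5 CpG, that of Ptgfr 52.0% with 10 CpG, that of Parm1 65.2% with 11 CpG and that of Hsd17b7 65.6% with 23 CpG. A match is a description of letters and not a bound site. Of the other members, Prlr has 3 promoters in the table, of which the first held a CCAAT box, the second TGACGT and a STAT match, and the third an AP-1 match.

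Taken over all 6 genes, the luteal set made up 2.11%, 0.859%, 2.14% and 1.34% of all counts in 2 month replicates 1 to 4. It made up 2.11%, 1.46% and 0.674% in 18 month replicates 1, 2 and 3-4, and 0.881%, 0.261% and 0.263% in 24 month replicates 1 to 3. The highest 24 month sample lay above the lowest sample of each younger age, so the ages overlapped in this share.

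**Figure D1:**
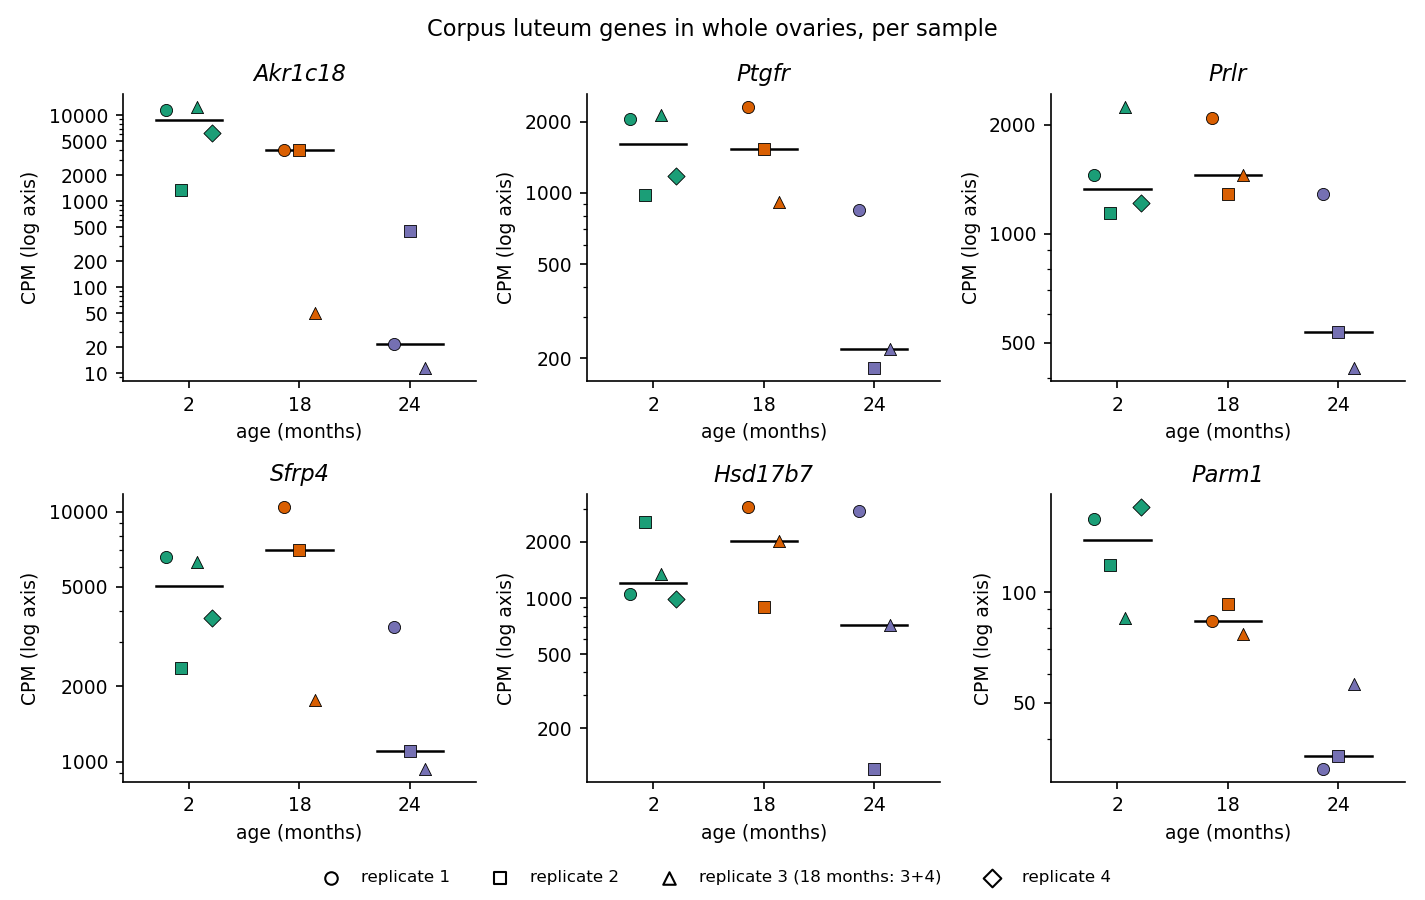
Level of each gene in CPM (log axis, a scale of its own in each panel) against age in months, with 1 point per sample, a symbol for the replicate number and a bar at the group median. Akr1c18, Ptgfr and Parm1 at 24 months lie below every 2 month sample, while Prlr, Sfrp4 and Hsd17b7 overlap between these ages.

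Akr1c18 (ENSMUSG00000021214, minus strand of chromosome 13 at 4132615 to 4150654 in mm10) encodes the dehydrogenase that reduces progesterone to a form with little activity at its receptor. It was at 11573, 1358, 12667 and 6284 CPM in 2 month replicates 1 to 4. At 18 months it was at 4003 and 3919 CPM in replicates 1 and 2 and at 49.7 CPM in replicate 3-4. At 24 months it was at 21.6, 447 and 11.4 CPM in replicates 1 to 3. All 24 month samples lay below all 2 month samples, while the 18 month group held both a low sample and a pair inside the 2 month range. Ranked by count among all genes, Akr1c18 was between place 4 and place 34 at 2 months, at place 11 and 10 in 18 month replicates 1 and 2, at place 4974 in replicate 3-4, and between place 207 and place 10742 at 24 months.

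The mean of Akr1c18 was 7970 ± 5215 CPM (SD, n = 4) at 2 months and 160 ± 248 CPM (n = 3) at 24 months, and it fell by 5.64 on the log2 scale (SE 1.83, 95% interval -9.74 to -1.54, edgeR quasi-likelihood adjusted p = 0.0388). That is a level 49.8-fold lower. The call was lost in 7 of the 10 fits that left out 1 sample, those without 18 month replicate 1 or 2, 24 month replicate 1 or 3, or 2 month replicate 1, 3 or 4, with adjusted p up to 0.0911 and a log2 fold change of -8.91 to -5.05 over all 10. Without 24 month replicate 2, the highest of its age, the log2 fold change was -8.91 and the adjusted p 0.0210.

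At 18 months the mean was 2657 ± 2259 CPM (n = 3), and neither neighbouring comparison passed. The log2 fold change from 2 to 18 months was -1.58 (SE 1.49, 95% interval -4.93 to 1.76, edgeR adjusted p = 0.514), and -1.01 without replicate 3-4. From 18 to 24 months it was -4.05 (SE 1.72, 95% interval -7.91 to -0.20, edgeR adjusted p = 0.472), and -4.63 without replicate 3-4. Both libraries of that sample gave the low value, with 265 and 485 counts of Akr1c18, where replicates 1 and 2 gave 112973 and 124290. Across all tested genes the biological coefficient of variation of Akr1c18, the spread between samples of an age beyond counting error, was at the 99.3 percentile with 1.14, where the median gene had 0.25.

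Akr1c18 lies in a cluster of Akr1c genes on chromosome 13. Over all libraries it had 1152402 counts, its neighbour Akr1c14 had 74921, Akr1c13 3338, Akr1c19 588, Akr1c12 164, and Akr1c21, Akr1c20 and Akr1c6 had 87, 19 and 0. The mean of Akr1c14 was 269, 244 and 263 CPM at 2, 18 and 24 months, so it lay below Akr1c18 in every 2 month sample but above it in 18 month replicate 3-4 (236 CPM) and in 24 month replicates 1 and 3 (290.1 and 320.3 CPM). Akr1cl, an aldo-keto reductase gene outside this cluster, was the only gene that shared stretches of 50 bases with the transcripts of Akr1c18, in 7 of 1205 (0.581%). Akr1cl was at 2555 ± 291 CPM at 2 months, 2376 ± 521 at 18 months and 2555 ± 511 at 24 months, so it kept a high level in samples where Akr1c18 was low, and how many of the few Akr1c18 reads there came from Akr1cl was not tested. Of the 8 Akr1c genes other than Akr1c18 that were listed, 6 were tested and 1 rose, Akr1c19, from 1.15 to 3.02 CPM between 2 and 24 months (edgeR adjusted p = 0.0230), a call lost without 24 month replicate 2 or 3. Among all genes 19.2% rose between these ages.

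Ptgfr (ENSMUSG00000028036, minus strand of chromosome 3 at 151796502 to 151837630) is the receptor for prostaglandin F. Its level was 2045, 979, 2128 and 1176 CPM in 2 month replicates 1 to 4, 2315, 1527 and 919 CPM in 18 month replicates 1, 2 and 3-4, and 849, 181 and 220 CPM in 24 month replicates 1 to 3. Every 24 month sample lay below every younger sample, though 24 month replicate 1 came close to the lowest of them. Ptgfr fell by 1.92 on the log2 scale from 2 to 24 months (SE 0.594, 95% interval -3.26 to -0.59, edgeR adjusted p = 0.0327), to a level 3.80-fold lower. The call was lost without 24 month replicate 2 or 3 or 2 month replicate 1 or 3, with adjusted p up to 0.0993 and a log2 fold change of -2.96 to -1.56 over the 10 fits.

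Between 2 and 18 months the means of Ptgfr were 1582 ± 589 and 1587 ± 699.8 CPM (n = 4 and 3). Their log2 difference was 0.0047 with a 95% interval of -1.25 to 1.26 (edgeR adjusted p = 0.997), which leaves room for more than a doubling either way. From 18 to 24 months, where the groups did not overlap, the log2 fold change was -1.93 (SE 0.618, edgeR adjusted p = 0.443). An uncharacterized gene on the opposite strand, Gm43618, overlaps Ptgfr and had 1827 counts, 0.528% of those of Ptgfr.

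Prlr (ENSMUSG00000005268, plus strand of chromosome 15 at 10177238 to 10349180) is the receptor through which prolactin supports the rodent corpus luteum. It is annotated with 12 transcripts, and gene counts do not separate its long and short forms. Its level was 1452, 1143, 2247 and 1214 CPM in 2 month replicates 1 to 4, 2092, 1288 and 1452 CPM at 18 months in replicates 1, 2 and 3-4, and 1289, 536 and 425 CPM in 24 month replicates 1 to 3. At 24 months, replicates 2 and 3 lay below all younger samples and replicate 1 lay among them. The log2 fold change from 2 to 24 months was -1.01 (SE 0.407, 95% interval -1.92 to -0.10, edgeR adjusted p = 0.0783) and did not pass. Without 24 month replicate 1 it was -1.63 (adjusted p = 0.00574), and that fit was the only one of the 10 in which Prlr passed. From 2 to 18 months the log2 fold change was 0.09 (95% interval -0.80 to 0.98), and from 18 to 24 months it was -1.10 (SE 0.429), with edgeR adjusted p of 0.905 and 0.465.

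Sfrp4 (ENSMUSG00000021319, plus strand of chromosome 13 at 19623104 to 19632994) encodes a secreted protein that binds Wnt ligands. Its level was 6604, 2362, 6281 and 3771 CPM in 2 month replicates 1 to 4, 10432, 7019 and 1770 CPM in 18 month replicates 1, 2 and 3-4, and 3450, 1103 and 936 CPM in 24 month replicates 1 to 3. The highest level of all was at 18 months, in the same age group as the lowest of the younger samples. None of its comparisons passed, with log2 fold changes of 0.43 (SE 0.641) from 2 to 18 months, -1.81 from 18 to 24 months and -1.38 (SE 0.670, edgeR adjusted p = 0.134) from 2 to 24 months. Without 24 month replicate 1 the last was -2.20 (adjusted p = 0.0353).

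Hsd17b7 (ENSMUSG00000026675, minus strand of chromosome 1 at 169949535 to 169969241) can convert estrone to estradiol and carries out a reduction step in cholesterol synthesis. Its level was 1053, 2548, 1354 and 982 CPM in 2 month replicates 1 to 4, 3081, 899 and 2037 CPM in 18 month replicates 1, 2 and 3-4, and 2930, 121 and 714 CPM in 24 month replicates 1 to 3. Its highest and lowest 24 month samples differed 24.2-fold, and the older age covered nearly the whole range of the younger ones. The log2 fold change from 2 to 24 months was -0.24 (SE 0.841, 95% interval -2.13 to 1.64, edgeR adjusted p = 0.840), and the sign turned without 24 month replicate 2 (0.30), 24 month replicate 3 (0.04) or 2 month replicate 2 (0.16). With limma-voom and its sample weights it was -2.48 (adjusted p = 0.0348), past the threshold. No comparison passed by edgeR, and the interval is too wide to say that the level stayed the same.

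Parm1 (ENSMUSG00000034981, plus strand of chromosome 5 at 91517615 to 91626894) had the lowest mean CPM of the 6 genes at each age and the lowest biological coefficient of variation. Its level was 158, 119, 85.2 and 170.2 CPM in 2 month replicates 1 to 4, 83.3, 92.5 and 77.0 CPM in 18 month replicates 1, 2 and 3-4, and 33.1, 36.0 and 56.4 CPM in 24 month replicates 1 to 3. The 24 month samples lay below all others, and the 18 month samples sat at the lower edge of the 2 month range. Parm1 fell by 1.67 on the log2 scale from 2 to 24 months (SE 0.265, 95% interval -2.26 to -1.08, edgeR adjusted p = 0.00322), to a level 3.18-fold lower, and this held in all 10 fits without 1 sample (adjusted p of 0.00277 to 0.0152). The log2 fold change was -0.66 from 2 to 18 months (SE 0.255, edgeR adjusted p = 0.120, and 0.0415 without 2 month replicate 3) and -1.01 from 18 to 24 months (SE 0.272, edgeR adjusted p = 0.434). Its biological coefficient of variation was 0.242, close to that of the median gene.

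**Figure D2:**
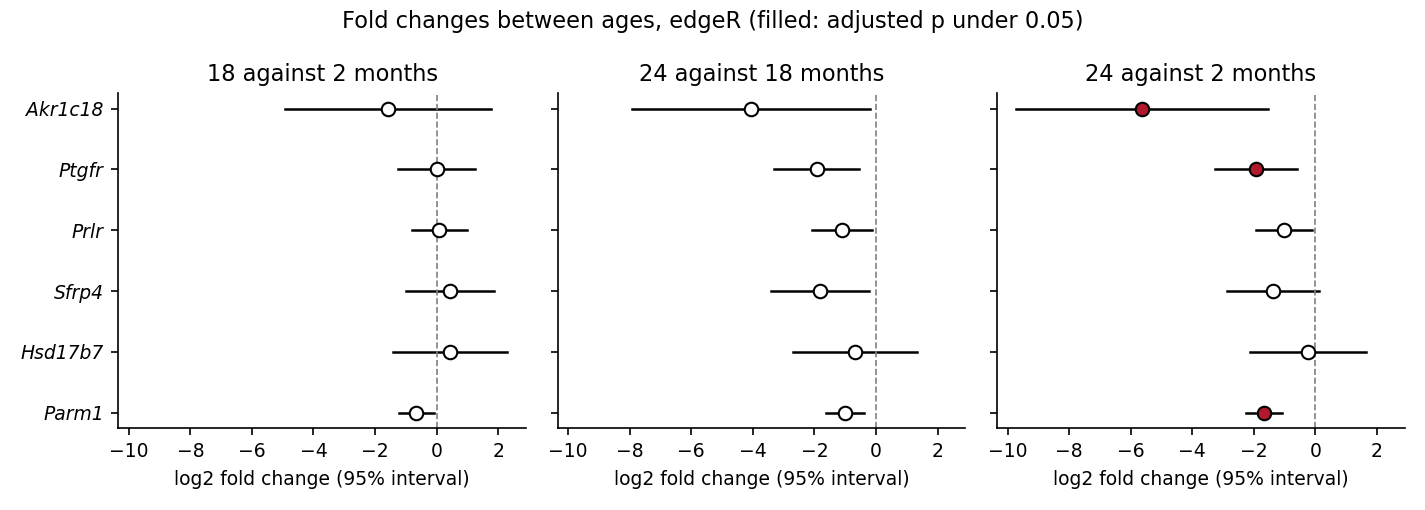
Log2 fold change (horizontal axis) of each of the 6 genes in the 3 comparisons of ages, later minus earlier, with the 95% interval of the edgeR fit and a filled point where the adjusted p is under 0.05. Filled points are those of Akr1c18 (-5.64), Ptgfr (-1.92) and Parm1 (-1.67) between 24 and 2 months, and the Akr1c18 intervals are the widest in each panel.

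Counted together, 3 of the 6 genes were lower at 24 than at 2 months and none was higher. DESeq2 called 4 and limma-voom all 6, while 1 was called with no filter on low counts, none with a replicate block over only these ages, and 1 to 4 when 1 sample was left out (1 without 24 month replicate 3 or 2 month replicate 1 or 3). Of all tested genes 35% (7120) were called in the main fit, 15.8% lower and 19.2% higher. Over all genes DESeq2 called 8339 and limma-voom 9806, 5899 were called with no filter and 1952 with that block. Leaving out 1 sample gave 4283 to 7467. Samples did not overlap for the same 3 genes, beside 20.4% of all genes that were lower without overlap and 21.7% that were higher. The median log2 fold change of the 6 was -1.52, against 0.03 for all genes.

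From 2 to 18 months none of the 6 passed by edgeR, beside 5.51% of all genes lower and 6.04% higher, and the median of the 6 was 0.05 against 0.0073. None of the 6 was free of overlap, beside 13.7% of all genes lower and 13.7% higher. At an unadjusted p under 0.05, Parm1 alone was lower, beside 14.2% of all genes lower and 15.7% higher. DESeq2 called none and limma-voom called Parm1, beside 4052 and 3315 of all genes. From 18 to 24 months none passed either, beside 0% of all genes lower and 0.00492% higher, and the median was -1.46 against 0.03. With the replicate number as a block, no gene of the table passed. With same-numbered samples of these ages matched, all 6 genes were lower at 24 months in each of the 3 pairs, beside 17.6% of all genes. The labels do not give this matching, which was chosen from correlations in these data, and the count depends on it. For example, Akr1c18 was at 49.7 CPM in 18 month replicate 3-4 and at 447 CPM in 24 month replicate 2. In the unpaired main fit of 24 against 18 months, 5 of the 6, all but Hsd17b7, were lower at an unadjusted p under 0.05. That stands beside 4.51% of all genes lower and 5.86% higher. DESeq2 called Parm1 there and limma-voom none, beside 194 and 1 of all genes. Ptgfr and Parm1 did not overlap, beside 5.36% of all genes lower and 6.73% higher without overlap. The comparisons share their samples and are not independent of each other.

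A test of any difference among the 3 ages passed for Parm1 (edgeR adjusted p = 0.00818) and for none of the other 5, whose adjusted p was 0.0701 for Ptgfr, 0.0934 for Akr1c18, 0.135 for Prlr, 0.170 for Sfrp4 and 0.814 for Hsd17b7. Of all genes 24.7% passed it.

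Per kilobase of annotated exon, which allows genes to be set side by side, Akr1c18 led at 2 months with 6603 ± 4321 CPM per kb (SD, n = 4), followed by Sfrp4 with 1138 ± 487, Hsd17b7 with 291 ± 142, Ptgfr with 233 ± 86.9, Prlr with 98.7 ± 33.0 and Parm1 with 26.2 ± 7.63. Hsd17b7 and Ptgfr, neighbours in that order, did not differ beyond their spread. At 24 months Sfrp4 had the highest mean with 438 ± 336 CPM per kb (n = 3). Hsd17b7 with 246 ± 290 and Akr1c18 with 132 ± 206 followed, and these 3 genes were within each other's spread. The highest Akr1c18 sample, at 370, lay above the median of Sfrp4, at 264. Ptgfr had 61.5 ± 55.3, Prlr 48.9 ± 30.7 and Parm1 8.25 ± 2.50 CPM per kb. The value of Prlr is divided by the 15339 exon bases of all its transcripts together, so it is a low estimate.

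**Figure D3:**
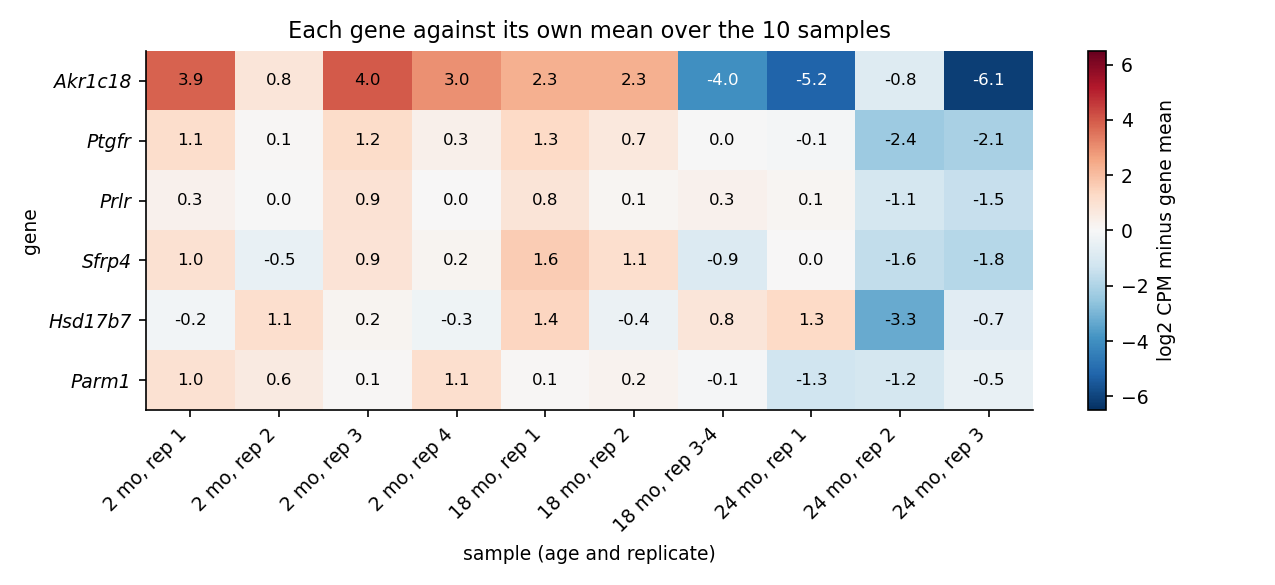
Log2 CPM of each gene (rows) in each of the 10 samples (columns, ordered by age and replicate) minus the gene's own mean over the samples, in colour and as a number. Akr1c18 is below its mean in 18 month replicate 3-4 and in all 24 month samples, and Hsd17b7 is lowest in 24 month replicate 2, where Akr1c18 is the highest of its age.

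The 6 genes did not move as 1 block across samples. Likeness was measured as the root mean square difference of log2 CPM over the 10 samples, each gene centred on its own mean. A smaller value means a more similar pattern and range together, since genes were not scaled to the same range. Ptgfr and Sfrp4 were the closest pair of the 6 with 0.465, and Ptgfr and Prlr followed with 0.590. Akr1c18 and Hsd17b7 were the farthest apart with 3.87. All pairs with Akr1c18 were far apart, between 2.92 and 3.87, and its own deviation from its mean was 3.64, so these values reflect its wide range too. At 2 months, replicate 2 had the lowest Akr1c18 (1358 CPM) and the highest Hsd17b7 (2548 CPM). At 24 months, replicate 2 had the highest Akr1c18 (447 CPM) and the lowest Hsd17b7 (121 CPM). At 18 months the order was not reversed in this way, since replicate 1 was highest in both.

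**Figure D4:**
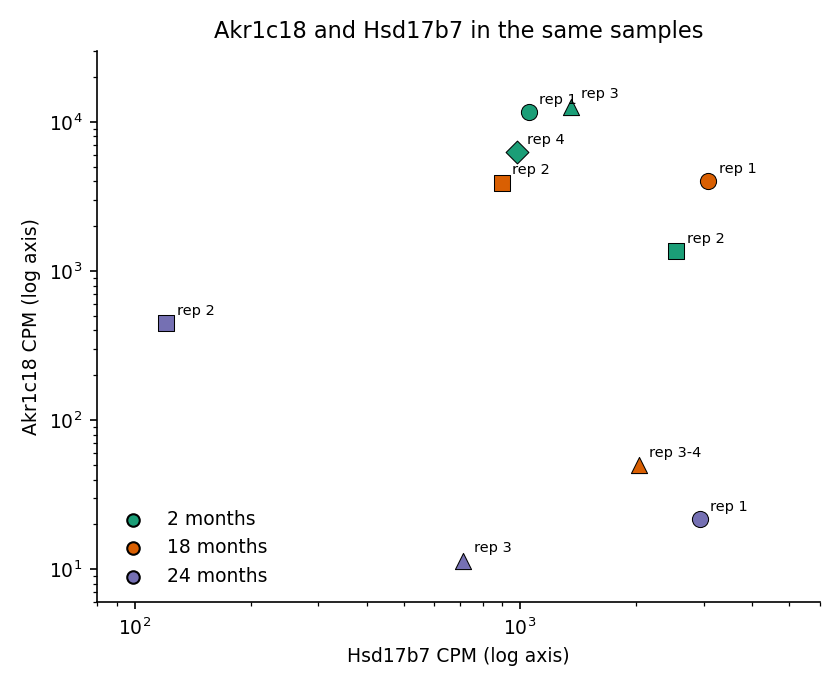
Akr1c18 against Hsd17b7 in the same samples, both in CPM on log axes, with 1 point per sample coloured by age and labelled by replicate. Within 2 months and within 24 months, replicate 2 stands apart in opposite directions, at 1358 and 2548 CPM and at 447 and 121 CPM for Akr1c18 and Hsd17b7.

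Among 11803 tested genes with a mean of at least 5 CPM, the genes with the pattern most like each of the 6 were as follows, with the root mean square difference over 10 samples. Nearest to Ptgfr were Scarb1 (0.377), the receptor that takes up cholesterol from high-density lipoprotein, Gch1 (0.379), the first enzyme of tetrahydrobiopterin synthesis, and Epdr1 (0.387). Nearest to Prlr were Fads6 (0.168), Stard4 (0.229), a carrier of cholesterol, and Fam126a (0.237). Epdr1 (0.356) was also nearest to Sfrp4, followed by Olfml2b (0.436) and Kcnma1 (0.451), a potassium channel. Nearest to Hsd17b7 were Cd177 (0.471), Bace2 (0.481) and Fbxl16 (0.591), and nearest to Parm1 were Sap30 (0.315), Pdcd1 (0.317) and Bcl11a (0.332). Nearest to Akr1c18 were Plekhg4 (0.912), Onecut2 (0.924) and Gal3st2c (1.37). These distances grow with a gene's own deviation from its mean, which was 3.64 for Akr1c18 and 1.22 for Ptgfr, and as a ratio to it the nearest gene was at 0.251 for Akr1c18 and 0.308 for Ptgfr. Over the 18 and 24 month samples alone, Akr1c18 shared 2 of its 3 nearest genes with this list, Prlr shared 1 and the others none.

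Because Akr1c18 inactivates progesterone while Star and Cyp11a1 act in making it, their levels were compared within each sample, as log2 ratios of CPM without correction for length, so that only differences between samples are read. The log2 ratio of Akr1c18 over Star, the protein that brings cholesterol into mitochondria, was -0.48, -2.89, -0.67 and -0.08 in 2 month replicates 1 to 4, -1.14, -0.62 and -6.76 in 18 month replicates 1, 2 and 3-4, and -6.09, -1.49 and -5.64 in 24 month replicates 1 to 3. The ages overlapped, since 24 month replicate 2 lay inside the 2 month range. The difference between 24 and 2 months was -3.37 (exact two-sided permutation p = 0.114). Over Cyp11a1, the enzyme that starts steroid synthesis, the difference was -5.45, the ages did not overlap, and the exact permutation p of 0.0571 was the smallest that 4 against 3 samples allow.

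Relative to the receptors, the ratio of Akr1c18 over Ptgfr differed by -4.74 between 24 and 2 months (exact permutation p = 0.114) with overlap, and that over Prlr by -5.82 (exact permutation p = 0.0571) without overlap. No ratio could reach a p under 0.05 in these designs, and the 12 ratio tests gave Benjamini-Hochberg adjusted values of 0.300 to 0.700. The differences between 18 and 2 months were -1.81 over Star, -2.03 over Cyp11a1, -2.68 over Ptgfr and -2.80 over Prlr. Without replicate 3-4 they were 0.15, -0.0080, -0.92 and -0.76.

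**Figure D5:**
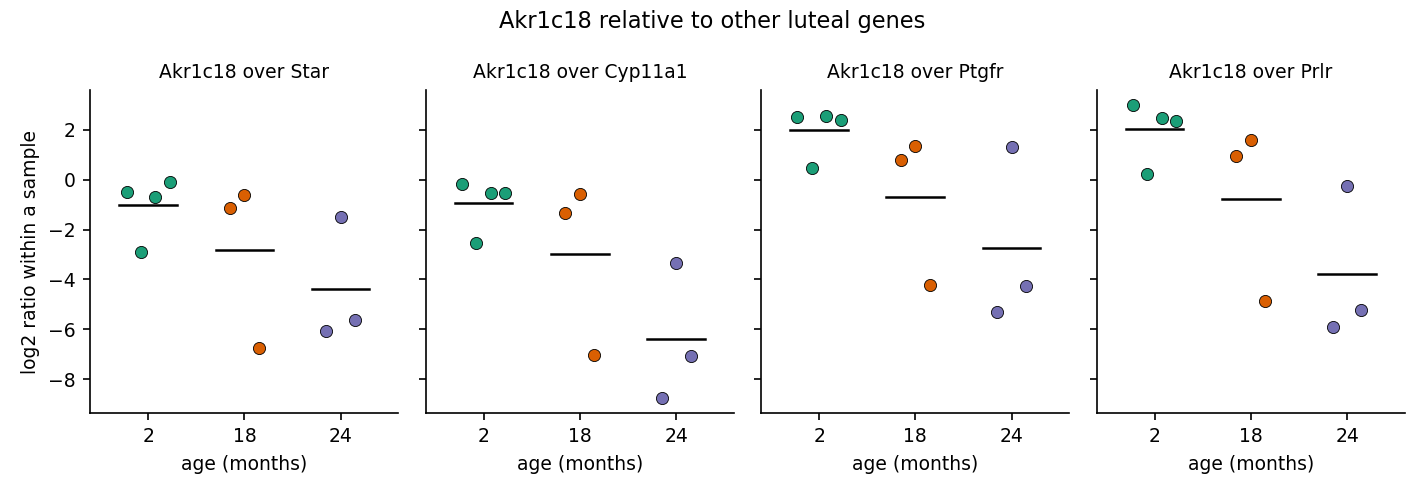
Log2 ratio of Akr1c18 over Star, Cyp11a1, Ptgfr and Prlr within a sample (vertical axis) against age in months, with 1 point per sample and a bar at the group mean. Replicate 3-4 at 18 months lies apart from its group in all 4 panels, and 24 month replicate 2 lies above the other 24 month samples.

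Other genes of luteal steroid synthesis were lower at 24 months in part. Of 12 genes tested, 4 fell from 2 to 24 months and none rose, with a median log2 fold change of -0.64 against 0.03 for all genes. Of all genes 15.8% fell and 19.2% rose. Star was at 13263 ± 6069 CPM (n = 4) and 1100 ± 472 CPM (n = 3) at these ages. The log2 fold change was -3.59 (SE 0.496, edgeR adjusted p = 0.00221), and Star was called in all 10 fits without 1 sample. Scarb1 fell by 1.78 and Fdx1, which passes electrons to Cyp11a1, by 1.60. Over all genes 7120 were called in the full fit, 4656 without 24 month replicate 2 and 4283 without 24 month replicate 3. Without 2 month replicate 1 or 3 it was 4537 or 6233, and without 24 month replicate 1 it was 7467. Counted in either direction, 1 gene of this list (Star) was called without 24 month replicate 2. The count was 2 without 24 month replicate 3 or 2 month replicate 1 or 3. It was 7 without 24 month replicate 1, among them Stard3, which was higher (log2 fold change of 0.218 to 0.440 over the 10 fits). Cyp11a1 and Hsd3b1, the enzyme that forms progesterone, did not pass, at -1.22 (SE 0.552) and -0.72 (SE 0.397). None passed between 2 and 18 months, with a median of -0.24.

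Among enzymes of cholesterol synthesis after squalene, the pathway in which Hsd17b7 takes part, 8 of 11 fell from 2 to 24 months and none rose, with a median of -1.72 against 0.03 for all genes. This stands beside 15.8% of all genes that fell and 19.2% that rose. Dhcr7, which forms cholesterol in the last step of one branch, went from 1031 ± 389 to 148 ± 92.9 CPM (log2 fold change -2.80, SE 0.448, edgeR adjusted p = 0.00332). Cyp51 fell by 2.49, Nsdhl by 2.02 and Ebp by 1.32, and these 4 were called in all 10 fits without 1 sample. The count of the list was 4 without 24 month replicate 2 or 3. Calls over all genes went from 7120 to 4656 without 24 month replicate 2 and to 4283 without replicate 3. None passed between 2 and 18 months. In this group Hsd17b7 itself did not pass, at -0.24.

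The other 17-beta hydroxysteroid dehydrogenases moved in both directions. Of 7 tested, 3 rose and 3 fell from 2 to 24 months, with a median of -0.53 against 0.03 for all genes. Of all genes 19.2% rose and 15.8% fell. Hsd17b2, which inactivates estradiol, rose from 2.83 ± 0.390 to 11.8 ± 0.839 CPM (log2 fold change 2.06, SE 0.260, edgeR adjusted p = 0.00205), and Hsd17b14 rose from 0.184 to 3.02 CPM. Hsd17b10, a mitochondrial enzyme, and Hsd17b4, a peroxisomal one, fell by 0.53 and 0.59, and Hsd17b11 rose and Hsd17b12 fell as well. The Hsd17b12 call was lost without 24 month replicate 2 or 3 or 2 month replicate 1 or 3 (adjusted p up to 0.123). From 2 to 18 months Hsd17b2 and Hsd17b14 rose and Hsd17b10 fell, beside 6.04% of all genes that rose and 5.51% that fell. These 3 genes became 1 (Hsd17b2) without 18 month replicate 2 or 3-4 or 2 month replicate 1, 2 or 4. In these fits calls over all genes went from 2349 to 730, 375, 382, 614 and 687, in that order.

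Transcription factors of luteinization did not share a direction. Of 13 tested, 2 rose and 3 fell from 2 to 24 months, with a median of -0.07, beside the 19.2% and 15.8% of all genes that rose and fell. Nr5a2, a nuclear receptor that luteinization requires in mice, fell from 562 ± 28.8 to 199 ± 101 CPM (log2 fold change -1.50, SE 0.358, edgeR adjusted p = 0.0131), and it is the fifth of the called genes and was named after its value was seen. Esr2, an estrogen receptor of granulosa cells, fell by 1.75, and Foxo1, a factor of granulosa cells, fell by 0.85. Gata4 rose by 0.88 on the log2 scale, and Pgr, the progesterone receptor, rose from 1.60 ± 0.547 to 8.93 ± 3.99 CPM. These 5 were called in all 10 fits without 1 sample. From 2 to 18 months Esr2 and Foxo1 fell, beside 5.51% of all genes that fell and 6.04% that rose. Esr2 no longer passed when 18 month replicate 3-4 or 2 month replicate 1 was left out, nor did Foxo1 when either of these, 18 month replicate 1 or 2 month replicate 2 or 4 was.

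On the prolactin side, Socs3, a feedback inhibitor of cytokine signalling, rose from 14.2 ± 2.54 to 25.1 ± 6.35 CPM from 2 to 24 months (log2 fold change 0.82, edgeR adjusted p = 0.0150), a call lost without 24 month replicate 3. It was the only one of 11 genes of prolactin and JAK-STAT signalling that passed, and the median of the list was -0.05, where 35% of all genes passed. Without 24 month replicate 1 or 2 the count was 2, where calls over all genes went from 7120 to 7467 or 4656.

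On the prostaglandin side, 2 of 12 genes rose and 2 fell from 2 to 24 months, with a median of 0.18 against 0.03 for all genes, of which 19.2% rose and 15.8% fell. Ptgs1, a cyclooxygenase, rose from 5.72 ± 0.879 to 12.7 ± 1.61 CPM (log2 fold change 1.15, edgeR adjusted p = 0.00357), and Ptger4, a receptor for prostaglandin E, rose from 6.24 ± 1.15 to 23.9 ± 13.1 CPM. Ptges and Ptges3, synthases of prostaglandin E, fell by 0.90 and 0.39. Both calls were lost without 24 month replicate 2 or 3, and that of Ptges3 also without 2 month replicate 1, 2 or 4 (adjusted p up to 0.117). Ptgs1 and Ptger4 also rose from 2 to 18 months, beside 6.04% of all genes that rose and 5.51% that fell. Counted in either direction, calls of the list there numbered 0 without replicate 3-4, where calls over all genes went from 2349 to 375. Calls of the list numbered 1 without 18 month replicate 2 or 2 month replicate 1, 2 or 4. Over all genes these fits gave 730, 382, 614 and 687 calls, in that order. There were 4 calls of the list without 24 month replicate 1, with Ptger2 higher and Hpgd lower added. There were also 4 without 24 month replicate 2, with Ptger2 higher and Ptges3 lower added. Without 2 month replicate 3 there were 5, and the added genes Ptges, Ptges3 and Hpgd were all lower. Over all genes these last fits gave 2699, 1993 and 2503 calls, in that order.

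Of 17 factors tied to luteal regression, 3 rose from 2 to 24 months and none fell, with a median of 0.21, so 3 of 17 stand beside the 19.2% of all genes that rose. Tnf, a cytokine of macrophages, rose from 0.310 ± 0.174 to 1.26 ± 0.322 CPM (log2 fold change 2.04, edgeR adjusted p = 0.00705), and Atf3, a stress-induced transcription factor, rose from 2.58 ± 0.519 to 8.42 ± 3.84 CPM. Fas, a death receptor, rose by 0.92 on the log2 scale, a call lost in 6 of 10 fits without 1 sample (24 month replicate 1, 2 or 3, or 2 month replicate 1, 2 or 4). Without 18 month replicate 3-4 the count of 3 became 5 in either direction, with Fosb higher and Jun lower added. Over all genes 7120 calls became 7180 in that fit. Tnf was also higher at 18 than at 2 months, beside 6.04% of all genes. That call was lost without 18 month replicate 1 or 3-4 or 2 month replicate 1, 2 or 4. Macrophage markers moved with these genes, summing to between 187 and 235 CPM at 2 months, 392 and 522 at 18 months and 449 and 500.4 at 24 months, with all 6 markers called higher at both older ages than at 2 months, and their part in the result was not tested.

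Sfrp4 has relatives and targets in Wnt signalling of the ovary. Of 15 such genes tested, 7 rose from 2 to 24 months and none fell, with a median of 0.72 against 0.03 for all genes. The shares of all genes were 19.2% that rose and 15.8% that fell. Wnt4, a ligand of granulosa cells, rose from 115 ± 39.3 to 330.2 ± 78.0 CPM (log2 fold change 1.52, SE 0.284, edgeR adjusted p = 0.00554), and Axin2, a target and inhibitor of Wnt signalling, rose from 25.2 ± 5.32 to 72.4 ± 14.6 CPM. Wnt2b rose by 1.38 on the log2 scale, a call lost without 24 month replicate 2. Sfrp5, a relative of Sfrp4, was at 0.126 ± 0.0077 CPM at 2 months and at 0.522, 5.72 and 0.262 CPM in 24 month replicates 1 to 3. Its log2 fold change of 4.06 (edgeR adjusted p = 0.0146) became 1.58 and lost its call without 24 month replicate 2. The count became 2 without 24 month replicate 2 and 4 without 24 month replicate 3 or 2 month replicate 1. Over all genes 7120 calls became 4656, 4283 and 4537 in these fits, in that order. From 2 to 18 months 5 rose, Wnt4, Axin2, Wnt2b, Rspo1 and Fzd1, beside 6.04% of all genes. None of the 15 was called without 18 month replicate 2 or 3-4 or 2 month replicate 1 or 2, and 2 were without 2 month replicate 4. Over all genes 2349 calls became 730, 375, 382, 614 and 687 in these fits, in that order.

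Of 10 progesterone receptors and reductases, 3 rose from 2 to 24 months and none fell, beside 19.2% of all genes that rose and 15.8% that fell. The median log2 fold change of the list was 0.17. Those that rose were Pgr, Paqr8, a membrane progesterone receptor, by 0.97 on the log2 scale, and Srd5a2, a steroid reductase. Srd5a2 was at 0.598 ± 0.233 CPM at 2 months and at 1.64, 9.28 and 1.22 CPM in 24 month replicates 1 to 3. Its log2 fold change was 2.75, fell to 1.25 without 24 month replicate 2, and lost its call without that sample or 2 month replicate 1 or 2. Paqr8 lost its call without 24 month replicate 1 or 2 month replicate 1. The count became 1 without 2 month replicate 1, where calls over all genes went from 7120 to 4537. No gene of any of these lists passed between 18 and 24 months.

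Markers of neighbouring tissue, and of theca and granulosa cells of the ovary itself, were also summed at each age. The 8 markers of oviduct and uterus epithelium had a summed level between 11.3 and 24.7 CPM at 2 months, between 61.5 and 195 at 18 months and between 47.9 and 1019 at 24 months. All 7 tested were called higher at 24 than at 2 months, beside 19.2% of all genes. The 6 fat markers summed to 12.8 to 20.8, 22.7 to 51.5 and 33.3 to 99.5 CPM at the 3 ages, and the 5 markers of uterus muscle and stroma to 242 to 348, 290 to 729 and 263 to 743 CPM. Theca markers ranged from 9237 to 19319, 6494 to 10874 and 2521 to 12160 CPM, of which Cyp11a1 held 61.8% to 94.5%, and the other 5 theca markers summed to 729 to 1310, 635 to 1135 and 962 to 2697 CPM. Granulosa markers ranged from 2925 to 3909, 1654 to 3037 and 1456 to 3728 CPM. The part of these tissues and cells in the levels of the 6 genes was not tested.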

How the data were processed

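Whole-ovary RNA was measured in 11 libraries made with a stranded mRNA kit after Trizol extraction, per the labels' protocols. Raw counts per gene were deposited as 1 table, made with FastQC, cutadapt, STAR and HTSeq on mm10, per the submitters' processing notes. Tool versions, annotation and strandedness in counting were not given in the sources used here, so reads of overlapping genes on opposite strands may be shared. Total counts were 5231724 to 33407509 per library, and shallow libraries carry more counting error at low counts.

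Libraries were grouped by age from their titles. Libraries of 1 age were compared by chi-square over genes with at least 10 summed counts, and 18 month replicates 3 and 4 were summed. Genes were filtered with filterByExpr, scaled by TMM and tested with edgeR 4.0.16 (R 4.3.3), quasi-likelihood with robust estimation, two-sided, all ages in 1 model with 7 residual degrees of freedom, at a Benjamini-Hochberg adjusted p of 0.05 over 20331 genes. The SE was the log2 fold change over the square root of F, and 95% intervals used the degrees of freedom of each gene. The script was checked on simulated counts. Log2 CPM used a prior count of 1. Ratios were tested by exact two-sided permutation over samples.

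The 6 genes and all gene lists were chosen with earlier results of these data known. Named list members were up to 4 called genes with the smallest adjusted p per list, and list members named beyond these were chosen after their values were seen, as were the TATA, CCAAT and GC motifs. The result of 1 list gene is not reported here. Of the listed genes, Prxl2b and Hsd17b8 were not matched in the table. Of the 54232 identifiers, 54079 were found in GENCODE M21 and 52787 had identical coordinates, including the 6 genes. Promoters came from RefSeq (GRCm38.p6) for 5 of the 6, and Sfrp4 had no entry. Shared 50-base stretches were counted in GENCODE M21 transcripts.

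To check whether replicate numbers pair samples, deviations of log2 CPM from each age's mean were correlated. The correlation was 0.389, 0.280 and 0.147 for the same-numbered pairs of 18 and 24 months. Unequal numbers, 18 month replicate 2 with 24 month replicate 3, also gave 0.135. Same-numbered samples of these ages were matched for description, although the labels do not say what a number shares. The main fit was unpaired. In no pair of 2 months with an older age did the correlation reach 0.1 for equal numbers. For unequal numbers it reached 0.236, for 2 month replicate 2 with 18 month replicate 3-4. That is above the 0.147 of an equal-numbered pair of the older ages, so the correlations do not settle what a number shares. Alternatives were scaling by DESeq2 1.42.0 or by library totals alone, the DESeq2 test, a stricter filter or none, a replicate block, only the ages compared, all 11 libraries apart, limma-voom (limma 3.58.1) with quality weights, a prior count of 0.25 and leaving out each sample.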

Additional observations from a re-analysis of the deposited data

Results flagged for a closer look

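In 2 month replicate 2 the log2 ratio of Akr1c18 over Cyp11a1 was -2.55, far below the other 2 month samples, which lay between -0.55 and -0.17. In the same sample the log2 ratio of Akr1c18 over Ptgfr was 0.47, against 2.42 to 2.57 in the other 2 month samples. Both values share the low Akr1c18 of that sample, 1358 CPM. Of 10 groups of values checked for a sample this far from the rest, these 2 were found, where chance gives about 1 in 20. The older ages had too few samples for this check, so all 10 groups were of 2 months. The groups are not independent, since several share the Akr1c18 values.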

How the results depend on the processing

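Between 24 and 2 months the 3 calls depended on the settings. The number of the 6 genes called was 1 with no filter on low counts, 0 with a replicate block over only the ages compared, 6 with limma-voom, and 1 to 4 when 1 sample was left out. Parm1 lost its call only under that block (adjusted p = 0.0651). Akr1c18 lost it with no filter (0.120) and under both blocks (0.124 and 0.0649), and Ptgfr with no filter (0.0928) and under the block of only the ages compared (0.0504). Between 18 and 2 months limma-voom called 1 (Parm1), and leaving out 1 sample gave 0 to 1. Between 24 and 18 months DESeq2 called 1 (Parm1, adjusted p = 0.0470), and the replicate block called no further gene of the 6. The test of any difference gave 2 with a replicate block and 1 to 3 without 1 sample.

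Over all genes, 2349 were called between 18 and 2 months, 541 with a block over only the ages compared, 1034 with a block over all ages, 4000 with all 11 libraries apart, 4052 by DESeq2 and 375 to 2748 without 1 sample, lowest without replicate 3-4. Between 24 and 18 months it was 1, 0 with library totals alone, with only the ages compared and with either replicate block, 194 by DESeq2 and 0 to 2 without 1 sample. Between 24 and 2 months it was 7120, 8339 by DESeq2, 9806 by limma-voom and 5899 with no filter on low counts. With a block over only the ages compared it was 1952, and without 1 sample 4283 to 7467. What equal replicate numbers share between 2 months and the older ages is not given in the labels.

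Directions near 0 turned. Between 18 and 2 months the log2 fold change of Ptgfr was -0.0073 with no filter, -0.093 and -0.15 with the replicate block over the ages compared and over all ages, -0.16 with 11 libraries, -0.034 by limma-voom and -0.35 to 0.28 without 1 sample. That of Prlr was -0.047 with the block and -0.12 to 0.33 without 1 sample, that of Hsd17b7 was -0.19 with the block, and that of Sfrp4 was -0.10 to 0.88 without 1 sample. Between 24 and 2 months Hsd17b7 ranged from -1.83 to 0.30 without 1 sample, and limma-voom gave -2.48 (adjusted p = 0.0348). The log2 ratio of Akr1c18 over Star between 18 and 2 months ranged from -2.92 to 0.15. The causes were not tested. The lowest level among the 6 genes was 11.4 CPM.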

Other observations

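Of 10 genes of luteal vessels tested, 1 rose and 1 fell from 2 to 24 months, where 35% of all genes changed. Plvap, a protein of fenestrated endothelium, rose from 20.8 ± 6.30 CPM (SD, n = 4) at 2 months to 130.1 ± 60.4 CPM (n = 3) at 24 months (log2 fold change 2.64, SE 0.602, edgeR adjusted p = 0.0109). Vegfa, the main vascular growth factor, fell from 358 ± 145 to 164 ± 39.4 CPM (log2 fold change -1.12, SE 0.379, edgeR adjusted p = 0.0446). The median of the list was 0.0053. Vegfa lost its call without 18 month replicate 1, 24 month replicate 2 or 3, or 2 month replicate 1, 2 or 3, and none of the 10 passed between 2 and 18 or between 18 and 24 months.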
